A study of Rattus norvegicus with 4 samples.

Results

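The miR-221 and miR-222 cluster is a pair of neighbouring miRNA genes, Mir221 and Mir222, taken here as every counted strand of these genes. It comprised 2 of the 452 miRNA genes in the read counts and 4 of the 740 mature miRNA names, namely the 5p and 3p strands of both precursors. Small RNA was sequenced from chondrocytes of rat costochondral cartilage (male Sprague Dawley rats) and from the matrix vesicles (MVs) that these cells leave in their matrix. The 4 groups were RC-cells, the resting zone chondrocytes, RC-MVs, the vesicles of their cultures, GC-cells, the growth zone chondrocytes, which stand for a more mature stage, and GC-MVs, the vesicles of those cultures. All cultures were at passage 4, were grown to confluence with serum and ascorbic acid and received no further treatment, and MVs were collected from the trypsin-digested cell layer by sequential centrifugation. Each group had 1 library, so no difference below has a replicate check and no p-value was computed. The age of the rats and the number of animals behind a culture are not given in the sources used here.

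MiRNAs are cut from a hairpin precursor whose arms give a 5p and a 3p strand, and one strand is usually kept in the Argonaute protein as the guide while the other is degraded. The guide finds messenger RNAs mainly through its seed, the bases from position 2 to 8. MiR-221 and miR-222 are known for repressing the cyclin-dependent kinase inhibitors Cdkn1b and Cdkn1c and the receptor Kit, for promoting proliferation in many tumours, and for high levels in endothelial and vascular smooth muscle cells. In cartilage they have been linked to chondrocyte proliferation and to matrix breakdown.

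The 4 mature sequences are shown because the strands share a seed on one arm only. They are RefSeq sequences of the rat genome build GRCr8, written 5′ to 3′ with the seed in capitals, and all 4 names of the counts were found in that table.
miR-221-3p: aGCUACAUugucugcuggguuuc
miR-222-3p: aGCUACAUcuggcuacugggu
miR-221-5p: aCCUGGCAuacaauguagauuuc
miR-222-5p: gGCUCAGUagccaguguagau
The 3p strands were identical over their first 8 bases and at 11 of the 21 positions that both strands have when aligned from the 5′ end. No mature rat sequence in the table other than these 2 carried this seed, among 693 mature names. The 5p strands were identical at 5 of 21 positions, and neither 5p seed occurred in another mature name. As the 3p strands differ beyond their seed, reads that cover the whole strand separate them.

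The hairpins are shown to place both arms, which are in capitals.
Mir222: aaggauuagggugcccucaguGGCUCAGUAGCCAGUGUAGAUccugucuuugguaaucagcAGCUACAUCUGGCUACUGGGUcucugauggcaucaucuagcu
Mir221: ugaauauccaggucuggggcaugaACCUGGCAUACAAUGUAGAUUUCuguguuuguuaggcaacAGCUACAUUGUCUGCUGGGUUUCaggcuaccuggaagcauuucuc
In GRCr8, the Mir222 hairpin is 103 bases long at chrX:6022621-6022723 and the Mir221 hairpin is 109 bases long at chrX:6023182-6023290, both on the plus strand. They are 458 bases apart, with no annotated gene starting between them, and both lie within the spans of 2 annotated long non-coding RNA genes, LOC120099382 and LOC120099384. Whether they are exonic or intronic there was not analysed here. The reads had been counted on the earlier build Rnor_6.0, whose coordinates were not used here.

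The libraries held 6517329 miRNA reads for RC-cells, 1108821 for RC-MVs, 7414467 for GC-cells and 982543 for GC-MVs. The strands are given as a percent of these totals, not divided by length, as each mature strand is 21 or 23 bases long. The Wilson intervals of shares and the exact intervals of ratios are at the 95% level and cover counting error only, since each group had 1 library. They treat reads as independent molecules, which reads are not, so they may be too narrow even for that. The cartilage miRNAs miR-140 and miR-455 (4 of 4 strands) were found in all 4 libraries and summed to between 0.526% and 1.00% of miRNA reads. Of 8 blood strands listed as markers, 7 were in the counts, and their sum was 0.00126% in RC-cells and 0.00123% in GC-cells against 0.0887% in RC-MVs and 0.190% in GC-MVs. The liver and serum miRNA miR-122-5p was at 0.401% in RC-MVs and 1.14% in GC-MVs and under 0.001% in both cell libraries. The 4 muscle strands summed to no more than 0.00733% in any library, and the 2 endothelial strands, both of miR-126a, summed to 0.0266% in RC-cells and 0.0223% in GC-cells, compared to 0.0158% in RC-MVs and 0.0640% in GC-MVs. Serum used in the cultures and to stop the trypsin had been cleared of bovine exosomes by ultracentrifugation, per the study's methods. The part of other cell types or of serum in the values below was not tested.

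MiR-221-3p, the guide strand of Mir221, was the most abundant member in every library. It had 27052 reads in RC-cells, or 0.415% of miRNA reads (95% interval from 0.410% to 0.420%). In RC-MVs it had 3333 reads, or 0.301% (0.291% to 0.311%). In GC-cells it had 17602 reads, or 0.237% (0.234% to 0.241%), and in GC-MVs 2712 reads, or 0.276% (0.266% to 0.287%). With percents of miRNA reads, the order was RC-cells, RC-MVs, GC-MVs and GC-cells, and no pair of neighbouring intervals overlapped. RC-cells were also highest under the 3 other scalings described below, but the order of the other 3 libraries was not the same there. It ranked 29th in RC-cells, 35th in GC-cells, 37th in RC-MVs and 36th in GC-MVs among the 431 to 501 miRNAs found in a library. In RC-cells it stood between miR-29a-3p with 0.449% and the cartilage strand miR-140-3p with 0.383%, and in GC-MVs between miR-148a-5p with 0.291% and miR-423-3p with 0.257%.

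MiR-222-3p, the guide strand of Mir222, was the second member in every library. Its counts were 15910 reads in RC-cells, or 0.244% (0.240% to 0.248%), and 1326 reads in RC-MVs, or 0.120% (0.113% to 0.126%). In GC-cells it had 11459 reads, or 0.155% (0.152% to 0.157%), and in GC-MVs 1048 reads, or 0.107% (0.100% to 0.113%). Both cell libraries thus stood above both MV libraries, whereas the intervals of RC-MVs and GC-MVs nearly touched at 0.113%. Its rank was 41 and 43 in RC-cells and GC-cells and 64 and 63 in RC-MVs and GC-MVs. In RC-MVs it stood between miR-30e-5p and miR-351, which had 1329 and 1319 reads, and in GC-cells between miR-134-5p with 11924 reads and miR-300-3p with 11443.

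The passenger strands were far lower. MiR-221-5p had 1618 reads for RC-cells (0.0248%) and 1296 for GC-cells (0.0175%), against 53 in RC-MVs (0.00478%) and 39 in GC-MVs (0.00397%). Both cell libraries stood above both MV libraries, and the intervals of the 2 MV libraries overlapped. MiR-222-5p, the rarest member, had 139 reads in RC-cells (0.00213%), 99 in GC-cells (0.00134%), 26 in RC-MVs (0.00234%) and 7 in GC-MVs (0.000712%), where 3 reads would be 0.000305%. Its intervals overlapped between RC-MVs and RC-cells and between GC-MVs and GC-cells. All 4 strands together held 0.686% of the RC-cell library and 0.411% of the GC-cell library, compared to 0.427% in RC-MVs and 0.387% in GC-MVs.

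**Figure D1:**
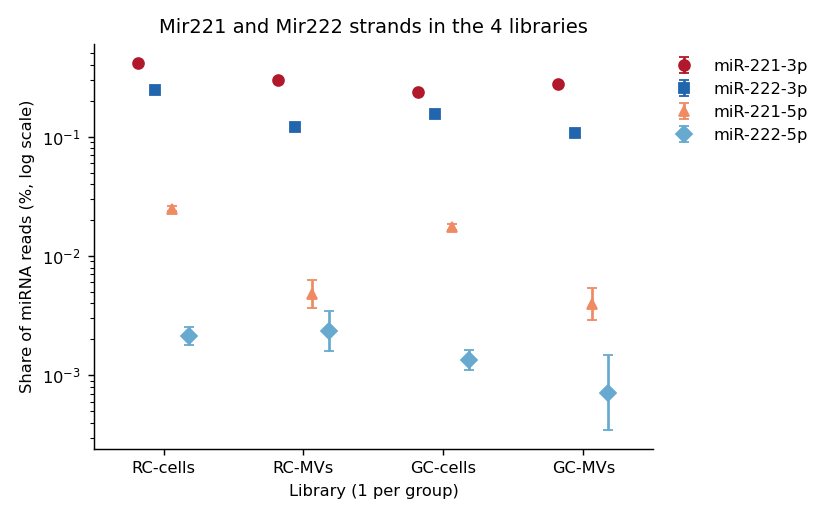
Share of miRNA reads (percent, log scale) of the 4 strands in the 4 libraries, 1 library per group, with 95% Wilson intervals for counting error. The order of the strands is the same in each library, and miR-221-5p lies at 0.0248% in RC-cells against 0.00478% in RC-MVs and at 0.0175% in GC-cells against 0.00397% in GC-MVs.

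The first comparison set the share of each strand in MVs of the resting zone against its share in the cells. All strands but miR-222-5p had a lower share in RC-MVs than in the cells. MiR-221-5p was 5.19-fold lower (95% interval from 3.95 to 6.96) and miR-222-3p was 2.04-fold lower (1.93 to 2.16), so that 2 of the 4 strands passed the 2-fold size used by the study, of which miR-222-3p lay at the limit and its interval included 2-fold. Of 414 miRNAs detected on both sides, 30.4% were at least 2-fold lower and 33.6% at least 2-fold higher in RC-MVs (64.0% in all), and a count of 2 among 4 is too small to set apart from this background. MiR-221-3p was 1.38-fold lower (1.33 to 1.43). The ratio of miR-222-5p was 1.10, with an interval from 0.694 to 1.68. Among the 146 miRNAs for which each library had at least 100 reads, 51 had a lower ratio than miR-221-3p and 36 a lower ratio than miR-222-3p. Among the 293 miRNAs for which each had at least 10 reads, 36 had a lower ratio than miR-221-5p. This floor leaves out miRNAs with few reads in the shallower MV library, so lower ratios can be missed in this count.

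In the growth zone, the guide strands of the pair had ratios on either side of 1. MiR-221-3p had a ratio of GC-MVs to GC-cells of 1.16 (95% interval from 1.12 to 1.21), which was 0.995 with edgeR's TMM normalization. MiR-222-3p was 1.45-fold lower in GC-MVs (1.36 to 1.55). MiR-221-5p was again the lowest, with a 4.40-fold lower share (3.20 to 6.22), and was the only member past 2-fold with percents of miRNA reads. Of 417 miRNAs, 25.2% were at least 2-fold lower and 32.1% at least 2-fold higher in GC-MVs (57.3% in all). Of the 275 miRNAs for which each library had at least 10 reads, 16 had a lower ratio than miR-221-5p, with the same limit of the floor. The ratio of miR-222-5p, from 7 reads in GC-MVs, was 0.534 with an interval from 0.209 to 1.14, and it passed 2-fold lower with TMM normalization (2.19-fold) and with size factors (2.08-fold).

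The vesicle-to-cell ratio of miR-221-3p was 1.61-fold lower for RC than for GC (95% Wald interval from 1.52 to 1.69), and that of miR-222-3p 1.41-fold lower (1.29 to 1.53). Over the 131 miRNAs for which every library had at least 100 reads, the median of this ratio of ratios was 1.00, and 23 of them lay below miR-221-3p and 33 below miR-222-3p. For the 5p strands the intervals included 1, with ratios of ratios of 0.848 (0.557 to 1.29) for miR-221-5p and 2.06 (0.860 to 4.94) for miR-222-5p. In each of the 3 other scalings the guide strands kept a lower vesicle-to-cell ratio in the resting zone, from 1.46-fold to 1.99-fold lower for miR-221-3p and from 1.28-fold to 1.75-fold lower for miR-222-3p.

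**Figure D2:**
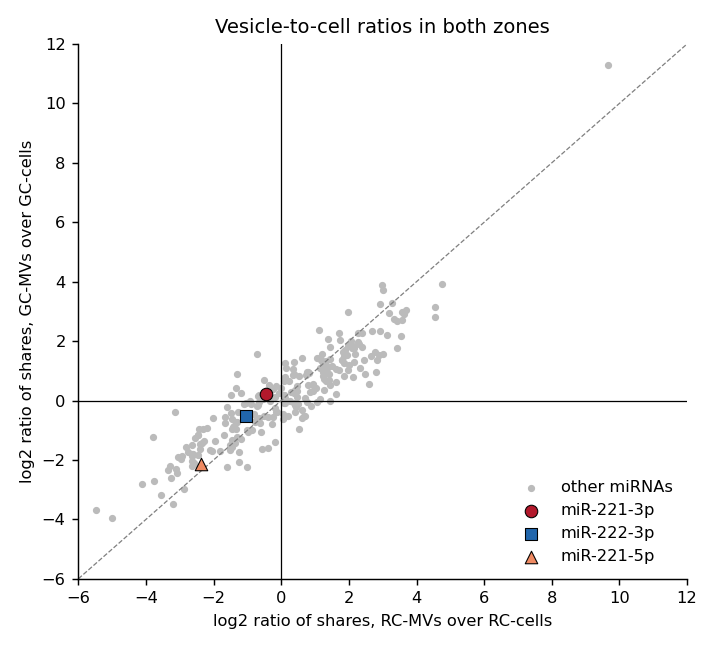
Log2 ratio of the share in GC-MVs over GC-cells against the same in RC-MVs over RC-cells, for the 262 miRNAs for which every library had at least 10 reads, with equal values on the dashed line. MiR-221-3p (-0.47 and 0.22) lies in the upper left quadrant, miR-222-3p (-1.03 and -0.54) is lower in both, and miR-221-5p (-2.38 and -2.14) is lower still. Other miRNAs reach down to -5.48 for RC and -3.96 for GC. MiR-222-5p had too few reads to be drawn.

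Between the zones, all 4 strands had a higher share in RC-cells than in GC-cells, and none reached 2-fold. MiR-221-3p was 1.75-fold higher (95% interval from 1.72 to 1.78), miR-222-3p 1.58-fold (1.54 to 1.62), miR-221-5p 1.42-fold (1.32 to 1.53) and miR-222-5p 1.60-fold (1.23 to 2.09). At least 2-fold differences were found in 19.4% of all 474 miRNAs, with 13.7% higher and 5.7% lower in RC-cells. This split depended on the scaling, as 70.7% of the differences were higher in RC-cells with percents but 40.0% with TMM normalization, 37.6% with size factors and 40.7% without miR-143-3p, miR-22-3p and miR-21-5p in the total. The ratio of all miRNAs also leaned this way, with a median log2 ratio of 0.24, against 0.81 for miR-221-3p and 0.66 for miR-222-3p. Among the 250 miRNAs for which each cell library had at least 100 reads, the median log2 ratio was 0.35. Of these, 49 had a higher ratio than miR-221-3p and 76 a higher ratio than miR-222-3p. A scaling shifts all miRNAs of a comparison alike, and under these scalings the median log2 ratio of all miRNAs was between -0.12 and -0.08, the ratio of miR-221-3p between 1.37 and 1.40 and that of miR-222-3p between 1.23 and 1.27.

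Between the MVs of the zones, the RC-MV to GC-MV ratio was 1.09 (95% interval from 1.03 to 1.15) for miR-221-3p and 1.12 (1.03 to 1.22) for miR-222-3p, and both were below 1 under each of the 3 other scalings, so no direction is given for either. MiR-221-5p had a ratio of 1.20 (0.781 to 1.87). MiR-222-5p was 3.29-fold higher in RC-MVs, from 26 reads against 7, with a wide interval from 1.39 to 8.98, and was the only strand past 2-fold, against 24.7% of all 397 miRNAs that were at least 2-fold higher, 14.6% that were lower and 39.3% in either direction. Of the differences between the MV libraries, 62.8% were higher in RC-MVs with percents, 51.0% with TMM normalization, 46.4% with size factors and 24.5% without the 3 abundant miRNAs.

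**Figure D3:**
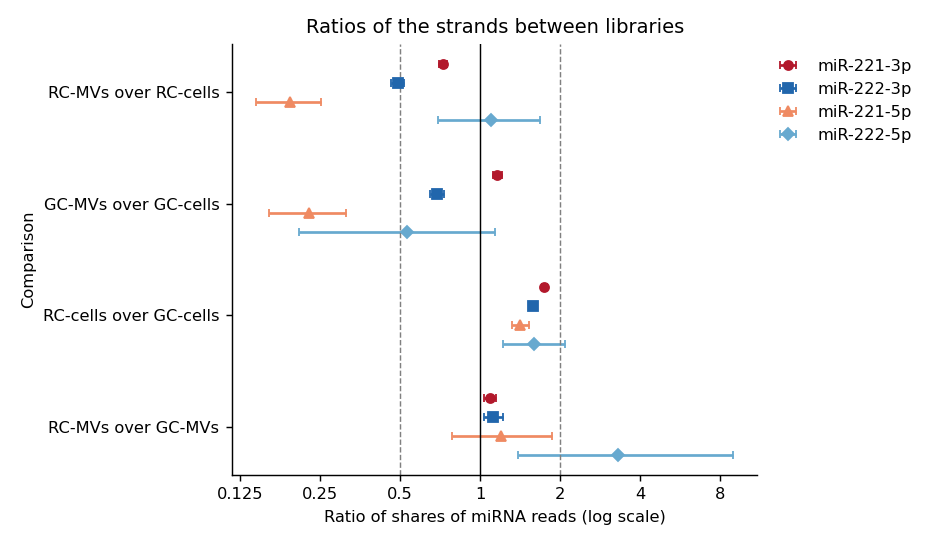
Ratio of shares of the 4 strands in the 4 comparisons (log scale), 1 library per group, with exact 95% intervals for counting error, a line at 1 and dashed lines at 2-fold in both directions. MiR-221-5p lies beyond 2-fold lower in both comparisons of MVs with cells, at 0.193 and 0.227, and all strands lie between 1.42 and 1.75 for RC-cells over GC-cells.

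Values within one precursor or within the pair do not depend on the total of a library. Of the reads of Mir221, the 5p arm made up 5.64% in RC-cells (95% exact interval from 5.38% to 5.92%) and 6.86% in GC-cells (6.50% to 7.23%), but 1.57% in RC-MVs (1.17% to 2.04%) and 1.42% in GC-MVs (1.01% to 1.93%). Both cell libraries stood far above both MV libraries, and the intervals of the MVs overlapped. The 5p to 3p ratio of Mir221 was lower by 3.76-fold in RC-MVs against RC-cells (95% Wald interval from 2.85 to 4.96) and by 5.12-fold in GC-MVs against GC-cells (3.71 to 7.06). It was also 1.23-fold lower in RC-cells than in GC-cells (1.14 to 1.33).

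Mir222 did not show this difference. Its 5p arm made up 0.866% in RC-cells (0.729% to 1.02%) and 0.857% in GC-cells (0.697% to 1.04%), 1.92% in RC-MVs (1.26% to 2.81%) and 0.664% in GC-MVs (0.267% to 1.36%). The intervals of the cell libraries overlapped, RC-MVs stood above them, and GC-MVs overlapped with them. Its 5p to 3p ratio was higher by 2.24-fold in RC-MVs against RC-cells (1.47 to 3.42), opposite to Mir221, and 0.773 of the cell value in GC-MVs with an interval from 0.358 to 1.67.

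To set Mir221 and Mir222 beside other precursors, the minor arm was taken as the arm with fewer reads over all 4 libraries. Precursors were first required to have at least 10 reads of both arms in both libraries of a comparison, which in the shallower MV libraries leaves out precursors whose minor arm is low there and so favours high minor arms in MVs. Over the 90 precursors of the resting zone so chosen, the median ratio of minor to major arm was 1.64 times as high in RC-MVs, 35 had a lower ratio there, and 16 had a lower one than Mir221. For Mir222, 52 of the 90 had a lower one, so its 2.24-fold rise, from 26 reads of 5p in RC-MVs, lay near the middle. With 7 reads of 5p in GC-MVs, Mir222 was under the floor in the growth zone. Over the 78 of the growth zone the median was 1.49, 29 were lower in GC-MVs, and 4 were lower than Mir221. With precursors chosen in the cell library alone, by at least 100 reads of both arms, and 0.5 reads added, an alternative set after seeing the data that favours high minor arms in cells instead, the medians were smaller. They were 1.24 over 74 precursors for RC and 1.27 over 75 for GC, with 33 and 31 precursors below 1 and with 18 and 9 below Mir221. Over 67 precursors of this alternative, the median percent of the minor arm was instead lower in MVs than in cells. It was 11.7% in RC-cells and 7.59% in RC-MVs, and 11.6% in GC-cells and 8.80% in GC-MVs.

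**Figure D4:**
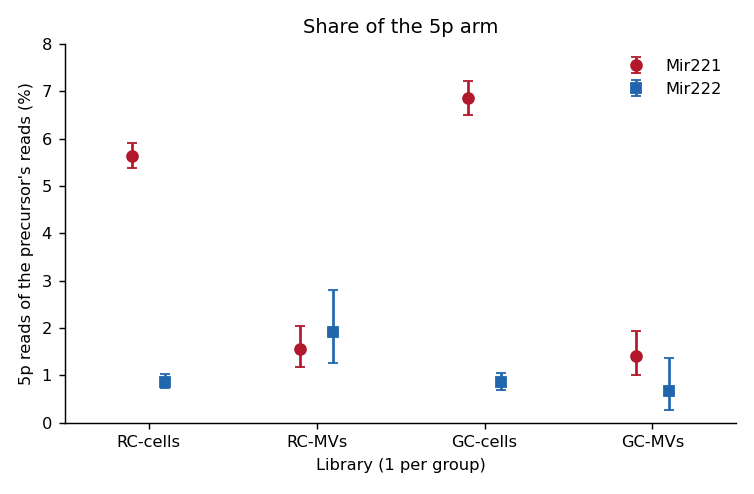
Reads of the 5p arm as a percent of the 5p and 3p reads of the same precursor in the 4 libraries, 1 library per group, with exact 95% intervals for counting error. Mir221 lies at 5.64% and 6.86% in the cells and at 1.57% and 1.42% in the MVs, and Mir222 lies between 0.664% and 1.92%.

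The guide strands also differed in their proportion to each other. There were 1.70 reads of miR-221-3p per read of miR-222-3p in RC-cells (95% exact interval from 1.67 to 1.73) and 1.54 in GC-cells (1.50 to 1.57), against 2.51 in RC-MVs (2.36 to 2.68) and 2.59 in GC-MVs (2.41 to 2.78). Both MV libraries stood above both cell libraries, and their own intervals overlapped. This ratio was higher by 1.48-fold in RC-MVs against RC-cells (95% Wald interval from 1.38 to 1.58) and by 1.68-fold in GC-MVs against GC-cells (1.56 to 1.82). For the 5p strands, the ratio of miR-221-5p to miR-222-5p was 11.6 in RC-cells, 13.1 in GC-cells, 2.04 in RC-MVs and 5.57 in GC-MVs, with a wide interval from 2.46 to 14.8 in GC-MVs.

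Shifts of this size were common among neighbouring miRNA genes. Besides Mir221 and Mir222, 10 pairs of precursors lay within 1000 bases of each other on 1 strand and had at least 100 reads of their leading strands in every library. From RC-cells to RC-MVs their leading strands shifted against each other by a median of 1.52-fold in either direction, and 5 of 10 pairs shifted more than miR-221-3p and miR-222-3p. From GC-cells to GC-MVs the median was 1.75-fold and again 5 of 10 shifted more. Between RC-MVs and GC-MVs, where the ratio of miR-221-3p to miR-222-3p differed by 1.03-fold, all 10 other pairs shifted more.

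The miRNAs with the pattern most like that of the guide strands were sought among those for which every library had at least 100 reads, by the root mean square difference of log2 shares centred on their mean over the 4 libraries. For miR-221-3p, the 5 nearest of 130 were miR-329-3p (0.13), miR-214-5p (0.15), miR-433-3p (0.22), let-7d-5p (0.22) and miR-28-5p (0.23), against a median difference of 0.73. For miR-222-3p they were miR-382-3p (0.09), miR-23b-3p (0.14), miR-379-5p (0.17), miR-101a-3p (0.20) and miR-24-3p (0.22), against a median of 0.78. The 2 lists had no miRNA in common, but lists of 5 from 130 are too short for this to tell the patterns apart. MiR-222-3p was the 17th nearest of 130 to miR-221-3p, and miR-221-3p the 15th nearest to miR-222-3p. Their difference of 0.33 was below both medians. With 4 libraries these distances are a description.

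**Figure D5:**
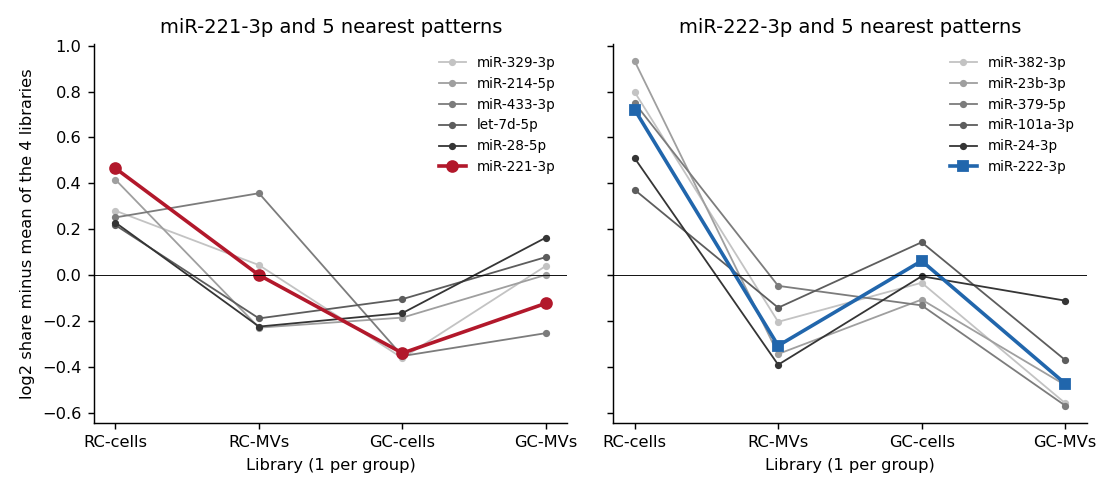
Log2 share minus its mean over the 4 libraries for miR-221-3p (left) and miR-222-3p (right) and the 5 miRNAs with the nearest pattern to each, 1 library per group, with lines joining the values of one miRNA. With these percents, miR-222-3p and its nearest miRNAs are lower in MVs than in cells of both zones, whereas miR-221-3p is highest in RC-cells and lowest in GC-cells, and its lowest library is RC-MVs under the 3 other scalings.

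Other miRNAs with known roles in proliferation were set beside the pair. Of 10 growth-promoting strands (the miR-17-92 and miR-106b-25 clusters and miR-21-5p), 8 were detected in both the RC-MV and RC-cell libraries. The other 2 had reads in RC-cells but none in RC-MVs and so have no ratio. Of the 8, 5 were at least 2-fold lower in RC-MVs, none was 2-fold higher, and their median ratio was 0.419, where 30.4% of all miRNAs were lower and 33.6% higher. Among these 8, the lowest was miR-20a-5p, 10.3-fold lower, and the highest was miR-25-3p with a ratio of 0.995. In the growth zone 3 of 10 were at least 2-fold lower in MVs and none higher, with a median ratio of 0.715, where 25.2% of all miRNAs were lower and 32.1% higher. Of 16 growth-restraining strands (the let-7, miR-34 and miR-15/16 families with miR-503 and miR-322), 13 were at least 2-fold lower and 1, let-7b-5p, was 2.56-fold higher in RC-MVs, with a median ratio of 0.186. In the growth zone 12 were lower and 1, let-7b-5p again, was 2.13-fold higher, with a median of 0.331. Over all miRNAs the median log2 ratio was 0.08 for RC and 0.13 for GC. The ratios of miR-221-3p, 0.724 and 1.16, were above the medians of both lists in both zones, and those of miR-222-3p, 0.490 and 0.690, were above the median of the growth-promoting list in the resting zone only. Between RC-cells and GC-cells, none of the 10 growth-promoting strands reached 2-fold, and of the 16 growth-restraining strands 2 were at least 2-fold higher in RC-cells, with miR-503 the highest at 5.02-fold, where 13.7% of all miRNAs were higher and 5.7% lower. Between RC-MVs and GC-MVs, 3 of 8 growth-promoting strands were at least 2-fold lower in RC-MVs, and the 2 without reads in RC-MVs were found in GC-MVs. Of the 16 growth-restraining strands 2 were higher and 1 was lower in RC-MVs, where 24.7% of all miRNAs were higher and 14.6% lower.

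Short motifs that have been described for sorting of miRNAs into vesicles were searched in the mature strands as printed. GGCU was found in both strands of Mir222, from position 11 of miR-222-3p and from position 1 of miR-222-5p, and in neither strand of Mir221. This motif occurred in 10.8% of 693 mature names. Where each library had at least 100 reads, the median RC-MV to RC-cell ratio was 1.81 for 20 miRNAs with GGCU and 1.06 for 110 without, and the median GC-MV to GC-cell ratio was 1.24 for 20 with it and 1.19 for 107 without. MiR-222-3p, which holds it, had ratios of 0.490 and 0.690, below miR-221-3p, which does not. For the 5p strands the order was the other way, as miR-222-5p, which holds it, had ratios of 1.10 and 0.534 and miR-221-5p, which does not, 0.193 and 0.227. GGAG, in 8.08% of mature names, and CCCU, in 9.52%, were in none of the 4 strands.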

How the data were processed

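Small RNA of 4 libraries was sequenced on an Illumina HiSeq instrument. The authors aligned reads with Bowtie2 to the rat build Rnor_6.0, tabulated them per mature miRNA locus with miARma-Seq, and the deposited values are raw whole-number read counts. Tool versions, trimming and the treatment of reads matching several loci are not given in the sources used here.

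Counts of 774 loci were added by mature name (28 names have several loci; the 4 strands of Mir221 and Mir222 have 1 each), divided by all miRNA reads of the library and compared as ratios of percents, as in the study's methods. A 2-fold ratio with at least 1 read in both libraries was called a difference. Intervals are Wilson for shares, exact Clopper-Pearson for ratios and arm shares, and Wald on the log scale for ratios of ratios. With 1 library per group no test was made. The code that makes the calls was run on simulated counts, and no error rate is given here for the calls. Named besides the members were the neighbours in rank, the 5 nearest patterns and the extremes of each list. Members and lists were chosen with earlier results of these data known. Alternatives were size factors of DESeq2, TMM normalization of edgeR, totals without miR-143-3p, miR-22-3p and miR-21-5p, 0.5 reads added, at least 10 reads, a 4-fold threshold and unmerged loci. Of the 740 names, 660 had a RefSeq sequence. The software was R 4.3.3 (DESeq2 1.42.0, edgeR 4.0.16) and Python 3.11.15 (scipy 1.17.1, pandas 2.3.3, numpy 2.4.6, matplotlib 3.10.9). The PCR array was not used here.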

Additional observations from a re-analysis of the deposited data

Results flagged for a closer look

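The vesicle-to-cell ratio of miR-221-3p was below 1 in the resting zone, at 0.724, and above 1 in the growth zone, at 1.16. With 1 library per group, this difference in direction was not tested. Of the 262 miRNAs for which every library had at least 10 reads, 20 (7.63%) had ratios below 1 for RC and above 1 for GC in the same way, and with TMM normalization the growth zone ratio of miR-221-3p was 0.995. The ratio of miR-222-5p was above 1 in the resting zone, at 1.10, and below 1 in the growth zone, at 0.534, which was not tested either, and the interval of each ratio included 1.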

How the results depend on the processing

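No paired analysis was possible because each group had 1 library and no result came from a replicated test. The 5p shares of both precursors stayed within their intervals with 0.5 reads added to both arms, as did all 16 ratios. One call at 2-fold changed with the total, that of miR-222-5p for GC-MVs over GC-cells, which was 0.457 with TMM normalization and 0.482 with size factors. Other totals moved ratios of the deeper strands outside their counting intervals. TMM normalization, DESeq2's size factors and totals without miR-143-3p, miR-22-3p and miR-21-5p, in this order, gave the following ratios. For RC-cells over GC-cells they were 1.39, 1.37 and 1.40 for miR-221-3p, 1.25, 1.23 and 1.27 for miR-222-3p and 1.13, 1.11 and 1.14 for miR-221-5p. For RC-MVs over GC-MVs they were 0.947, 0.917 and 0.704 for miR-221-3p and 0.975, 0.944 and 0.724 for miR-222-3p, below 1 in each case, and without the 3 abundant miRNAs miR-221-5p was at 0.778. For GC-MVs over GC-cells they were 0.995, 1.05 and 1.25 for miR-221-3p and 0.591, 0.623 and 0.741 for miR-222-3p. For RC-MVs over RC-cells, TMM normalization and totals without the 3 miRNAs gave 0.680 and 0.626 for miR-221-3p and 0.460 and 0.423 for miR-222-3p. Under the same totals, which were applied to it only after seeing the data, the resting zone over growth zone ratio of vesicle-to-cell ratios was 0.683, 0.671 and 0.502 for miR-221-3p, and 0.779 with TMM normalization and 0.572 without the 3 miRNAs for miR-222-3p.

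The counts of miRNAs at least 2-fold apart were 265 for RC-MVs over RC-cells, 239 for GC-MVs over GC-cells, 92 for RC-cells over GC-cells and 156 for RC-MVs over GC-MVs. A 4-fold threshold gave 143, 101, 20 and 32. At least 10 reads in both libraries, with fewer miRNAs tested, gave 144, 50 and 97 for the last 3 comparisons. The other settings kept each count within 1.5 times. Depth limits miR-222-5p and miR-221-5p in the MV libraries most, with 7 to 53 reads.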
